A study of Mus musculus with 18 samples.

Results

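Deadenylases are nucleases that shorten the poly(A) tail of an mRNA, and the adaptors described with them bring these enzymes to their target mRNAs. The group consists of 10 genes, taken by name from the 47069 genes that the deposited tables list: the adaptors Btg4, Tob1, Tob2 and Zfp36l2, the scaffold Cnot1, the catalytic subunits Cnot7, Cnot8, Cnot6 and Cnot6l, and the separate enzyme Parn. All 10 are among the 12037 genes that passed a filter on low counts. The study profiled 18 single oocytes of C57BL/6 wild-type mice by SMART-seq2, in 6 groups of 3 oocytes. At 12 months of age the groups were metaphase II oocytes matured in vitro beside MSC (MSC-IVM-MII-12m), metaphase II oocytes matured in vitro without them (IVM-MII-12m) and germinal vesicle oocytes, the stage before meiosis resumes (GV-12m). The same 3 kinds at 6 weeks were MSC-IVM-MII-6wk, IVM-MII-6wk and GV-6wk. The labels do not spell out MSC, and they name neither the source of those cells nor the animal that an oocyte came from. The series' design text also speaks of in vivo-matured oocytes, which are not analysed here.

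The CCR4-NOT complex carries its nucleases on the large scaffold protein CNOT1. CNOT7 and its paralog CNOT8 are the CAF1-type nucleases, and CNOT6 and its paralog CNOT6L are the CCR4-type nucleases, which bind the scaffold through the CAF1 subunit. BTG and TOB proteins bind the CAF1 subunits directly, and in mouse oocytes BTG4 brings the complex to translated maternal mRNAs, which are stored during growth and cleared during maturation. ZFP36L2 binds AU-rich elements and recruits the same complex, and PARN is a cap-binding poly(A) nuclease outside it that is best known from frog oocytes.

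Total counts were between 1914072 and 9193559 per oocyte. Because no label ties an oocyte to an animal, a litter or a culture, the 3 oocytes of a group count as 1 sample, there is no test between groups, and every SD is over 3 oocytes and may be smaller or larger than that between animals. Values per oocyte are CPM, the counts per 1000000 of the TMM-scaled library size. A difference is that of the group means of log2(CPM + 1), and it is called past 2-fold where its size is at least 1. The 12 oocyte markers summed to 4335 to 10022 CPM in 10 of the 12 metaphase II oocytes. In GV oocytes they summed to 25992 to 53064 CPM in 5 of the 6, but to only 7294 CPM in GV-12m oocyte 3. Single markers went both ways. At 12 months Zp3 was at 25.6 to 206.7 CPM in metaphase II and 2062 to 20725 CPM in GV oocytes. Dazl was at 1193 to 2724 CPM in metaphase II and 268.3 to 809.0 CPM in GV oocytes of that age. Cumulus and granulosa markers summed to 0 to 80.3 CPM in the 12 metaphase II oocytes and to 73.3 to 253.0 CPM in 5 of the 6 GV oocytes, but to 1889.9 CPM in GV-12m oocyte 3, which held the highest level of 9 of the 18 markers (Inha 915.0 and Gja1 672.4 CPM), while Amh, Star, Ptx3 and Lhcgr were at 0 in it. Mitochondrially encoded genes took 3.03% to 14.9% of counts in metaphase II oocytes and 0.917% to 3.70% in GV oocytes. The library titles begin with O01, O04 or O05 at 12 months and with Y01 or Y03 at 6 weeks, which the labels do not explain. No prefix holds both ages, so age and prefix cannot be told apart. The metaphase II oocytes of prefix Y01 (oocyte 1 of IVM-MII-6wk and oocyte 1 of MSC-IVM-MII-6wk) had mitochondrial shares of 3.22% and 3.03%, below the 6.04% to 14.9% of the other 10, and their oocyte markers summed to 24241 and 19764 CPM, above those of the other 10.

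The 10 genes spanned a wide range of levels, compared here by TPM, which corrects for gene length. Btg4 came first and Cnot7 next in the order of median TPM in each of the 6 groups, and Cnot8 followed. Btg4 had a median of 6159 TPM (4364 to 9647) over the 12 metaphase II oocytes and 1190.0 TPM (764.2 to 2154) over the 6 GV oocytes. It made up 90.7% to 97.6% of the summed TPM of the 10 genes in metaphase II oocytes and 81.4% to 89.7% in GV oocytes. Among all genes of a library, Btg4 ranked between 11 and 26 by TPM in the metaphase II oocytes and between 56 and 240 in the GV oocytes. The range of Btg4 lay above that of Cnot7 in every group, whereas the ranges of Cnot7 and Cnot8 overlapped in IVM-MII-6wk and GV-6wk oocytes. Below Cnot8, most neighbours in the order had overlapping ranges. Tob1 had no count in 6 of the 18 oocytes and Zfp36l2 in 9.

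**Figure D1:**
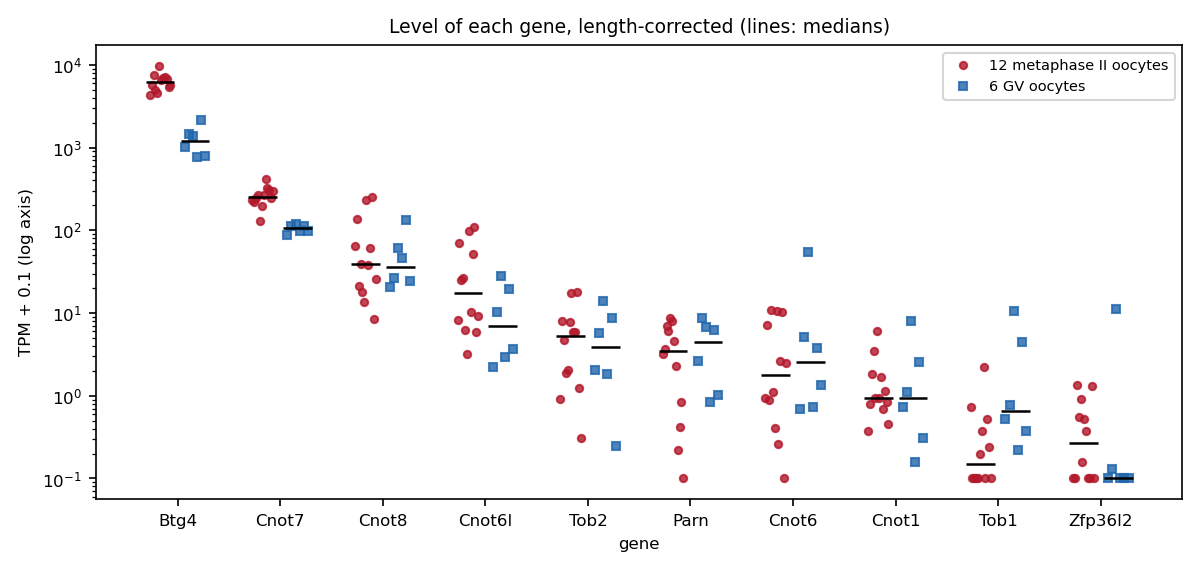
TPM + 0.1 (log axis) of the 10 genes, with 1 point per oocyte, the 12 metaphase II oocytes as circles left of the 6 GV oocytes as squares, and lines at the medians. Btg4 lies above all others, with medians of 6159 TPM in metaphase II and 1190.0 TPM in GV oocytes, and the points of the weakly expressed genes spread over more than a factor of 10.

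Of the 10 genes, Btg4 (ENSMUSG00000032056, chr9:51060901-51119875, + strand, GRCm38) separates the stages most clearly, so the sequence before its RefSeq start is shown. The 250 bases are those of chr9:51115751-51116000 (+ strand, RefSeq, GRCm38.p6), with capitals at the matches to CANNTG, the E-box pattern.
Btg4: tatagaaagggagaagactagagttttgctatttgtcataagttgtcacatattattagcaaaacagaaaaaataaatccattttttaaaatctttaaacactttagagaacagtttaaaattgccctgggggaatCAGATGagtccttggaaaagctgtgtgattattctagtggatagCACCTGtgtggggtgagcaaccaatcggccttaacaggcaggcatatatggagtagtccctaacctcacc
This window lies inside the gene span given above, not before the start of that span at 51060901. Whether it bears on the difference between the stages was not tested. The window had a GC content of 38%, and 8.47% of the 32851 RefSeq promoter windows of the same length had a lower one (median 52.4%). It held 2 matches to CANNTG, a number reached by 31.8% of the windows, and 66.2% held at least 1. Since CANNTG reads alike on both strands, each match counts once. It held 1 match to CCAAT on either strand, as did 33.8% of windows with at least 1, and no match to TATAAA, which 12.4% of windows held. The other 11 windows, which belong to Cnot6, Cnot6l, Cnot8, Parn, Tob1 and Tob2, had GC contents of 52% to 82.4%. Windows were matched for 7 of the 10 genes.

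Btg4 was higher in every metaphase II oocyte than in any GV oocyte of the same age. At 12 months it was at 4743, 5914 and 7538 CPM in MSC-IVM-MII-12m oocytes and at 6348, 6324 and 10328 CPM in IVM-MII-12m oocytes, against 1868, 1914 and 1025 CPM in GV-12m oocytes. At 6 weeks Btg4 was at 5256, 8034 and 8193 CPM in MSC-IVM-MII-6wk oocytes and at 5642, 6281 and 6516 CPM in IVM-MII-6wk oocytes, against 880.2, 1889.7 and 1061 CPM in GV-6wk oocytes. The lowest metaphase II value exceeded the highest GV value 2.48-fold at 12 months and 2.78-fold at 6 weeks. The group means differed 3.79-fold for MSC-IVM-MII-12m and 4.78-fold for IVM-MII-12m over GV-12m, and 5.61-fold for MSC-IVM-MII-6wk and 4.81-fold for IVM-MII-6wk over GV-6wk. On the log2 scale these differences were 1.95 ± 0.61, 2.27 ± 0.65, 2.54 ± 0.68 and 2.34 ± 0.58, where the SD is the root of the summed variances of the oocytes of both groups. Within title prefixes that both groups hold they were 2.01, 2.53, 2.48 and 2.36. The pairs of comparisons at 1 age share their GV oocytes.

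These values are shares of a library of polyadenylated RNA, so the amount of RNA per oocyte and its capture through the poly(A) tail cannot be told apart. Over the 12037 genes tested, the median difference was −0.60 for MSC-IVM-MII-12m minus GV-12m, −0.52 for IVM-MII-12m minus GV-12m, −0.29 for MSC-IVM-MII-6wk minus GV-6wk and −0.52 for IVM-MII-6wk minus GV-6wk. Relative to those medians the Btg4 differences were 2.55, 2.79, 2.83 and 2.86. Other scalings moved the median of all genes by more than 0.1, for example to −0.68 with DESeq2 size factors and −0.35 in TPM for IVM-MII-12m minus GV-12m, and the Btg4 difference stayed at 1.84 or more under each.

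Between the ages and with co-culture, the Btg4 values of whole groups overlapped. GV-12m oocytes differed from GV-6wk oocytes by 0.35 ± 0.77, IVM-MII-12m from IVM-MII-6wk by 0.28 ± 0.42 and MSC-IVM-MII-12m from MSC-IVM-MII-6wk by −0.24 ± 0.49, and the oocytes overlapped in each. MSC-IVM-MII oocytes differed from IVM-MII oocytes by −0.32 ± 0.53 at 12 months and by 0.19 ± 0.38 at 6 weeks, again with overlap. Within title prefixes the order was more regular at 12 months, where co-cultured oocytes were at 4743 CPM against 6348 and 6324 CPM in prefix O04 and at 5914 and 7538 CPM against 10328 CPM in prefix O05, a mean difference of −0.52. At 6 weeks the co-cultured oocytes were above the others in prefix Y03, with 8034 and 8193 CPM against 6281 and 6516 CPM, and below in prefix Y01, with 5256 CPM against 5642 CPM.

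Cnot7 (ENSMUSG00000031601, chr8:40492540-40515847, − strand), the CAF1-type nuclease with the higher level, was also above GV in every metaphase II oocyte of its age. It was at 292.8, 443.3 and 395.9 CPM in MSC-IVM-MII-12m oocytes and at 446.8, 203.9 and 250.9 CPM in IVM-MII-12m oocytes, against 164.2, 160.6 and 133.6 CPM in GV-12m oocytes. At 6 weeks Cnot7 was at 373.8, 589.1 and 608.3 CPM in MSC-IVM-MII-6wk oocytes and at 502.7, 315.8 and 459.8 CPM in IVM-MII-6wk oocytes, against 119.8, 135.6 and 132.7 CPM in GV-6wk oocytes. The 6 GV oocytes lay close together, and the margin was narrow at 12 months, where the lowest metaphase II value was 1.24-fold the highest GV value, against 2.33-fold at 6 weeks. The differences were 1.28 ± 0.35 for MSC-IVM-MII-12m and 0.90 ± 0.61 for IVM-MII-12m over GV-12m, and 1.98 ± 0.40 for MSC-IVM-MII-6wk and 1.69 ± 0.37 for IVM-MII-6wk over GV-6wk. The value of 0.90 is short of the 2-fold limit. With DESeq2 size factors it was 0.67. Whether the maturation difference depends on age was not tested. Between the ages the oocytes overlapped, with differences of −0.46 in MSC-IVM-MII, −0.56 in IVM-MII and 0.23 in GV oocytes. With co-culture the differences were 0.39 at 12 months and 0.29 at 6 weeks, with overlap. Of its exonic bases, 247 are shared with Zdhhc2 on the other strand, and the sources used here do not say whether counting used strand.

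**Figure D2:**
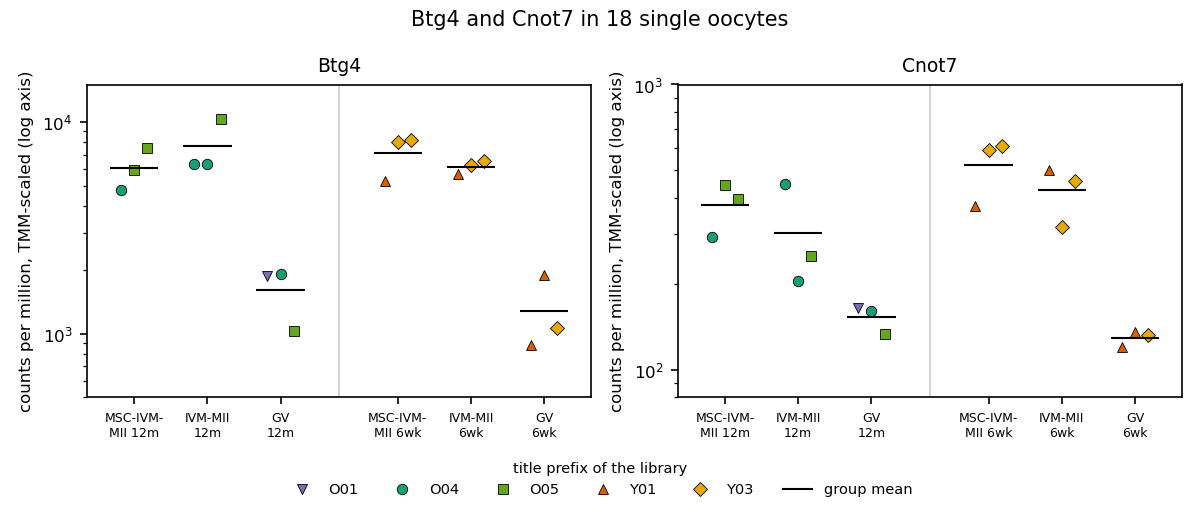
Btg4 (left) and Cnot7 (right) in CPM on log axes, with 1 point per oocyte, shaped by the prefix of its library title, and lines at the group means. Every metaphase II oocyte lies above every GV oocyte of its age, for Btg4 with at least 4743 against at most 1914 CPM at 12 months and at least 5256 against at most 1889.7 CPM at 6 weeks.

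Cnot8 (ENSMUSG00000020515, chr11:58104153-58118594, + strand), the paralog of Cnot7, gave overlapping groups in all 9 comparisons. It was at 117.9, 243.9 and 36.1 CPM in MSC-IVM-MII-12m oocytes and at 84.1, 42.0 and 24.1 CPM in IVM-MII-12m oocytes, against 63.8, 58.9 and 78.7 CPM in GV-12m oocytes. At 6 weeks Cnot8 was at 312.5, 72.7 and 118.1 CPM in MSC-IVM-MII-6wk oocytes and at 352.6, 16.1 and 49.8 CPM in IVM-MII-6wk oocytes, against 90.3, 193.8 and 55.2 CPM in GV-6wk oocytes. The highest values, 352.6 and 312.5 CPM, belong to the metaphase II oocytes of prefix Y01, and the other metaphase II oocytes ran down to 16.1 CPM. Of its 50-base pieces, 7.82% also occur in Gm18860, so part of its count is uncertain.

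Reads of paralogs can be confused where the sequences are the same, so the longest identical stretch in the coding sequences of each pair (GENCODE M21, GRCm38) is shown.
Cnot7 and Cnot8: tcatttcacagtggttatga
Cnot6l and Cnot6: cataaagacttcaaggaact
Tob1 and Tob2: tgtccagctctccctc
These stretches have 20, 20 and 16 bases, and the pairs were identical at 69.1%, 71.7% and 60.6% of aligned coding positions. Within each library the Cnot7 to Cnot8 ratio, as log2 of TPM with a pseudocount of 1, was 2.0 ± 1.42 in MSC-IVM-MII-12m and 3.10 ± 0.58 in IVM-MII-12m oocytes, against 1.69 ± 0.65 in GV-12m oocytes. It was 2.01 ± 1.65 in MSC-IVM-MII-6wk and 2.82 ± 2.29 in IVM-MII-6wk oocytes, against 0.93 ± 1.11 in GV-6wk oocytes. The 3 IVM-MII-12m oocytes, at 2.72 or more, were all above the GV-12m oocytes, at 2.07 or less, and the other groups overlapped.

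Cnot6l (ENSMUSG00000034724, chr5:96070333-96164171, − strand), a CCR4-type nuclease with a role in maternal mRNA clearance in the mouse, varied more between oocytes of a group than between groups. It was at 19.6, 205.0 and 65.2 CPM in MSC-IVM-MII-12m oocytes and at 106.1, 20.8 and 9.32 CPM in IVM-MII-12m oocytes, against 16.9, 43.1 and 99.6 CPM in GV-12m oocytes. At 6 weeks Cnot6l was at 193.7, 46.7 and 157.1 CPM in MSC-IVM-MII-6wk oocytes and at 270.8, 22.6 and 30.5 CPM in IVM-MII-6wk oocytes, against 7.51, 63.8 and 12.7 CPM in GV-6wk oocytes. The groups overlapped in every comparison, although the difference from GV was past 2-fold at 6 weeks, at 2.53 ± 1.88 for MSC-IVM-MII-6wk and 1.58 ± 2.46 for IVM-MII-6wk. Without IVM-MII-6wk oocyte 1, of prefix Y01, the value of 1.58 was 0.47. The age difference in IVM-MII oocytes, −1.02 ± 2.58, turned to 0.08 without the same oocyte.

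Cnot6 (ENSMUSG00000020362, chr11:49671503-49712723, − strand), the paralog of Cnot6l, was lower and as uneven. It was at 0.45, 15.5 and 0.59 CPM in MSC-IVM-MII-12m oocytes and at 23.8, 5.00 and 0.64 CPM in IVM-MII-12m oocytes, against 0.67, 9.66 and 118.6 CPM in GV-12m oocytes. At 6 weeks Cnot6 was at 19.6, 0.33 and 9.64 CPM in MSC-IVM-MII-6wk oocytes and at 18.7, 0 and 5.41 CPM in IVM-MII-6wk oocytes, against 2.95, 8.98 and 4.6 CPM in GV-6wk oocytes. The 118.6 CPM stand in GV-12m oocyte 3, the library with the high granulosa markers, and their part in this value was not tested. Without that oocyte the difference of MSC-IVM-MII-12m from GV-12m was −0.33 in place of −1.93. That of IVM-MII-12m from GV-12m was 0.57 in place of −1.04, and that of GV-12m from GV-6wk was −0.52 in place of 1.09. Without GV-12m oocyte 1, at 0.67 CPM, the same differences were −3.41, −2.52 and 2.56.

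The Cnot6l to Cnot6 ratio within each library, as log2 of TPM, was 3.10 ± 0.78 in MSC-IVM-MII-12m and 1.57 ± 0.32 in IVM-MII-12m oocytes, against 0.32 ± 1.07 in GV-12m oocytes. At 12 months the 3 groups did not overlap in TPM, with 2.32 to 3.87 in MSC-IVM-MII-12m, 1.21 to 1.82 in IVM-MII-12m and −0.92 to 0.97 in GV-12m oocytes. At 6 weeks the ratio was 3.42 ± 0.40 in MSC-IVM-MII-6wk and 2.56 ± 0.88 in IVM-MII-6wk oocytes, against 1.47 ± 0.59 in GV-6wk oocytes. There MSC-IVM-MII-6wk, at 3.12 to 3.87, was above GV-6wk, at 1.03 to 2.14, and overlapped IVM-MII-6wk, at 1.59 to 3.31. The pseudocount pulls the ratio of weakly expressed pairs towards 0, and Cnot6 was at 10 TPM or less in all but 4 oocytes. The TPM ratio also depends on the gene length assigned per oocyte, which CPM does not use. For Cnot6 this length was 830 bases in MSC-IVM-MII-12m oocyte 1, 982 in GV-12m oocyte 1 and 3234 in GV-12m oocyte 3. Its part in the ratio was not tested. In CPM the 12-month ratios averaged 4.28 in MSC-IVM-MII-12m, 2.21 in IVM-MII-12m and 1.74 in GV-12m oocytes. There MSC-IVM-MII-12m, at 3.64 to 5.38, was still above both other groups, but IVM-MII-12m, at 1.86 to 2.66, overlapped GV-12m, at −0.25 to 3.42. Cnot6 had only 1 to 3 counts in 4 of these 9 oocytes. Among them were MSC-IVM-MII-12m oocytes 1 and 3, with 1 and 3 counts.

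**Figure D3:**
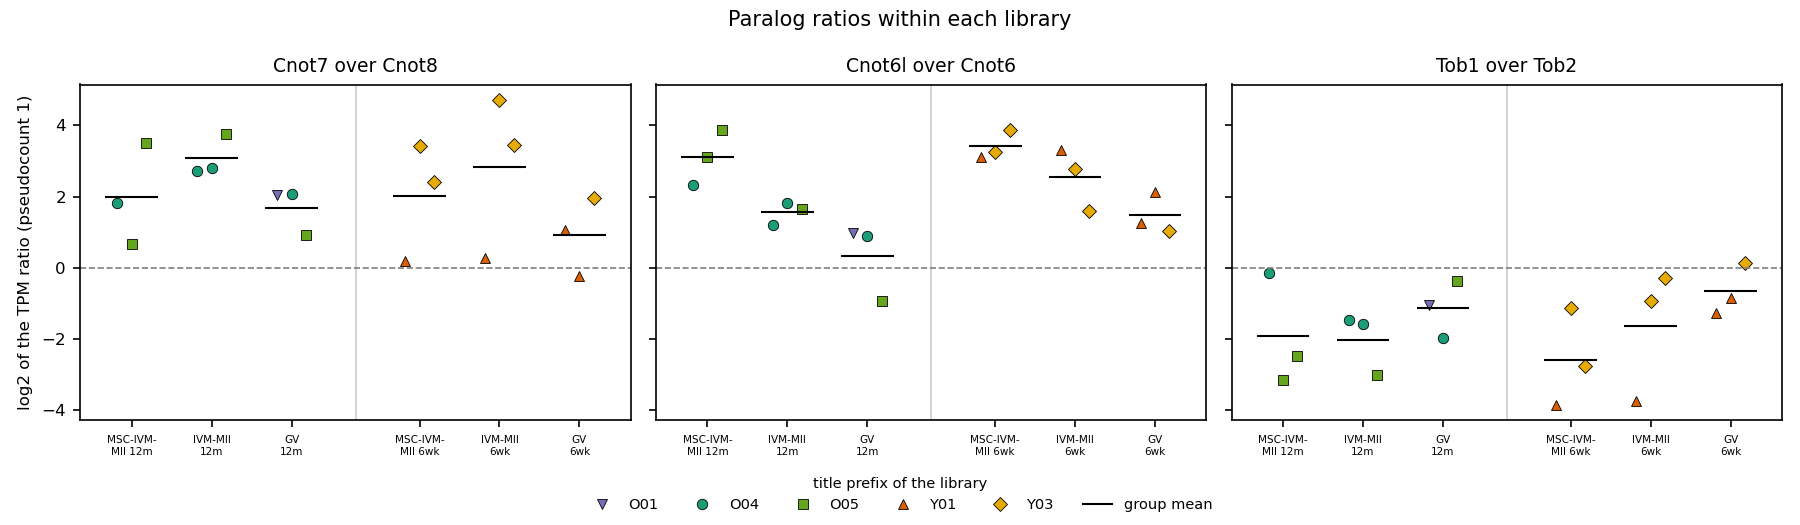
Log2 of the TPM ratio of 3 paralog pairs within each library (pseudocount 1), with 1 point per oocyte, shaped by title prefix, lines at the group means and a dashed line at equal levels. Cnot6l over Cnot6 has means of 3.10, 1.57 and 0.32 at 12 months in MSC-IVM-MII, IVM-MII and GV oocytes, while Tob1 lies below Tob2 in all but 1 oocyte.

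Cnot1 (ENSMUSG00000036550, chr8:95719451-95807464, − strand), the scaffold, was weakly detected. It was at 2.23, 5.82 and 13.6 CPM in MSC-IVM-MII-12m oocytes and at 32.7, 8.99 and 47.9 CPM in IVM-MII-12m oocytes, against 9.33, 10.7 and 47.7 CPM in GV-12m oocytes. At 6 weeks Cnot1 was at 5.27, 13.7 and 5.17 CPM in MSC-IVM-MII-6wk oocytes and at 6.74, 6.51 and 3.13 CPM in IVM-MII-6wk oocytes, against 0.54, 16.7 and 2.12 CPM in GV-6wk oocytes. The 3 IVM-MII-12m oocytes were all above the 3 IVM-MII-6wk oocytes, 5.47-fold in the mean (2.03 ± 1.30). GV-12m oocytes differed from GV-6wk oocytes by a similar 2.04 ± 2.20, but those groups overlapped, and MSC-IVM-MII-12m differed from MSC-IVM-MII-6wk by −0.27 ± 1.30. MSC-IVM-MII-12m oocytes were 4.13-fold lower than IVM-MII-12m oocytes in the mean (−1.89 ± 1.62), with overlap. Of its 50-base pieces, 8.94% also occur in Gm6158.

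Parn (ENSMUSG00000022685, chr16:13537960-13668170, − strand) showed its largest difference between the ages in IVM-MII oocytes, and at a pseudocount of 1 CPM it was the largest of the 10 genes over the 9 comparisons. It was at 8.46, 9.69 and 18 CPM in MSC-IVM-MII-12m oocytes, against 9.06, 6.33 and 0.34 CPM in MSC-IVM-MII-6wk oocytes. In IVM-MII-12m oocytes it was at 19.1, 30.6 and 21.4 CPM, against 0.67, 2.17 and 0 CPM in IVM-MII-6wk oocytes. In GV-12m oocytes it was at 11.8, 29.2 and 12.8 CPM, against 2.14, 13.3 and 3.18 CPM in GV-6wk oocytes. The IVM-MII groups did not overlap. They held 412 counts at 12 months and 10 counts at 6 weeks in all, and the difference was 3.79 ± 0.90, which depends on the pseudocount, with 5.38 at a pseudocount of 0.1 and 2.27 at 5, where Btg4 reached 2.53 for MSC-IVM-MII-6wk over GV-6wk. In TPM the Parn difference was 2.68. Leaving out each oocyte in turn gave 3.39 to 4.23, and thinning every library to the smallest total gave 3.76. The age difference was 1.61 ± 1.35 in GV oocytes and 1.42 ± 1.65 in MSC-IVM-MII oocytes, where the ages overlapped, and without MSC-IVM-MII-6wk oocyte 3 the second was 0.53.

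With co-culture, Parn was on opposite sides at the 2 ages. MSC-IVM-MII-12m oocytes were all below IVM-MII-12m oocytes (1.97-fold in the mean, −0.96 ± 0.64), while MSC-IVM-MII-6wk oocytes differed from IVM-MII-6wk oocytes by 1.41 ± 1.77, with overlap. Whether these effects differ was not tested. IVM-MII-6wk oocytes were also lower than GV-6wk oocytes, by −1.72 ± 1.43 with overlap, whereas IVM-MII-12m oocytes differed from GV-12m oocytes by 0.47 ± 0.77.

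Tob1 (ENSMUSG00000037573, chr11:94211454-94215495, + strand) and Tob2 (ENSMUSG00000048546, chr15:81848272-81858796, − strand), the TOB adaptors, stood at low levels. Tob1 was at 1.34, 0 and 0 CPM in MSC-IVM-MII-12m oocytes and at 0, 0 and 0.21 CPM in IVM-MII-12m oocytes, against 1.56, 1.76 and 15.4 CPM in GV-12m oocytes. All 6 metaphase II oocytes of 12 months were below the 3 GV-12m oocytes. Tob1 had 3 counts in all in MSC-IVM-MII-12m oocytes, against 123 in GV-12m oocytes, which is 31.2-fold lower relative to the library sizes (95% counting interval 10.4 to 153). IVM-MII-12m oocytes held 1 count, which is 116-fold lower (20.4 to 4620). Most of the 123 counts came from GV-12m oocyte 3, and without it the differences were −1.0 and −1.32 in place of −1.88 and −2.19. At 6 weeks Tob1 was at 0.42, 4.67 and 0 CPM in MSC-IVM-MII-6wk oocytes and at 0.67, 0.31 and 0 CPM in IVM-MII-6wk oocytes, against 0.27, 7.28 and 0.71 CPM in GV-6wk oocytes, and the groups overlapped.

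Tob2 was above Tob1 by TPM in 17 of the 18 oocytes. It was at 3.12, 30.2 and 17 CPM in MSC-IVM-MII-12m oocytes and at 7.97, 9.79 and 29.6 CPM in IVM-MII-12m oocytes, against 12.9, 26.7 and 38.1 CPM in GV-12m oocytes. At 6 weeks Tob2 was at 49.7, 23.7 and 23.4 CPM in MSC-IVM-MII-6wk oocytes and at 53.0, 4.65 and 0.85 CPM in IVM-MII-6wk oocytes, against 6.97, 26.4 and 0.71 CPM in GV-6wk oocytes. The groups overlapped in all 9 comparisons. The 3 MSC-IVM-MII-6wk oocytes were all at 23.4 CPM or more, and differed from GV-6wk by 2.12 ± 2.1 and from IVM-MII-6wk by 1.92 ± 2.55. Of its exonic bases, 289 are shared with Gm49476 on the other strand.

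Zfp36l2 (ENSMUSG00000045817, chr17:84183931-84187947, − strand) was close to the limit of detection. It was at 0, 0 and 3.95 CPM in MSC-IVM-MII-12m oocytes and at 1.81, 3.6 and 0.21 CPM in IVM-MII-12m oocytes, against 0, 0.13 and 26.9 CPM in GV-12m oocytes. At 6 weeks Zfp36l2 was at 1.05, 1.00 and 0 CPM in MSC-IVM-MII-6wk oocytes and at 0, 4.34 and 0 CPM in IVM-MII-6wk oocytes, against no count in the 3 GV-6wk oocytes. GV-12m oocyte 3 held 178 of the 179 counts of its group, so the difference of GV-12m from GV-6wk, 1.66 ± 2.72 or at least 10.4-fold against a floor of 3 counts per library, was 0.09 without that oocyte. The granulosa markers of that library were 1889.9 CPM, and their part in the Zfp36l2 value was not tested.

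**Figure D4:**
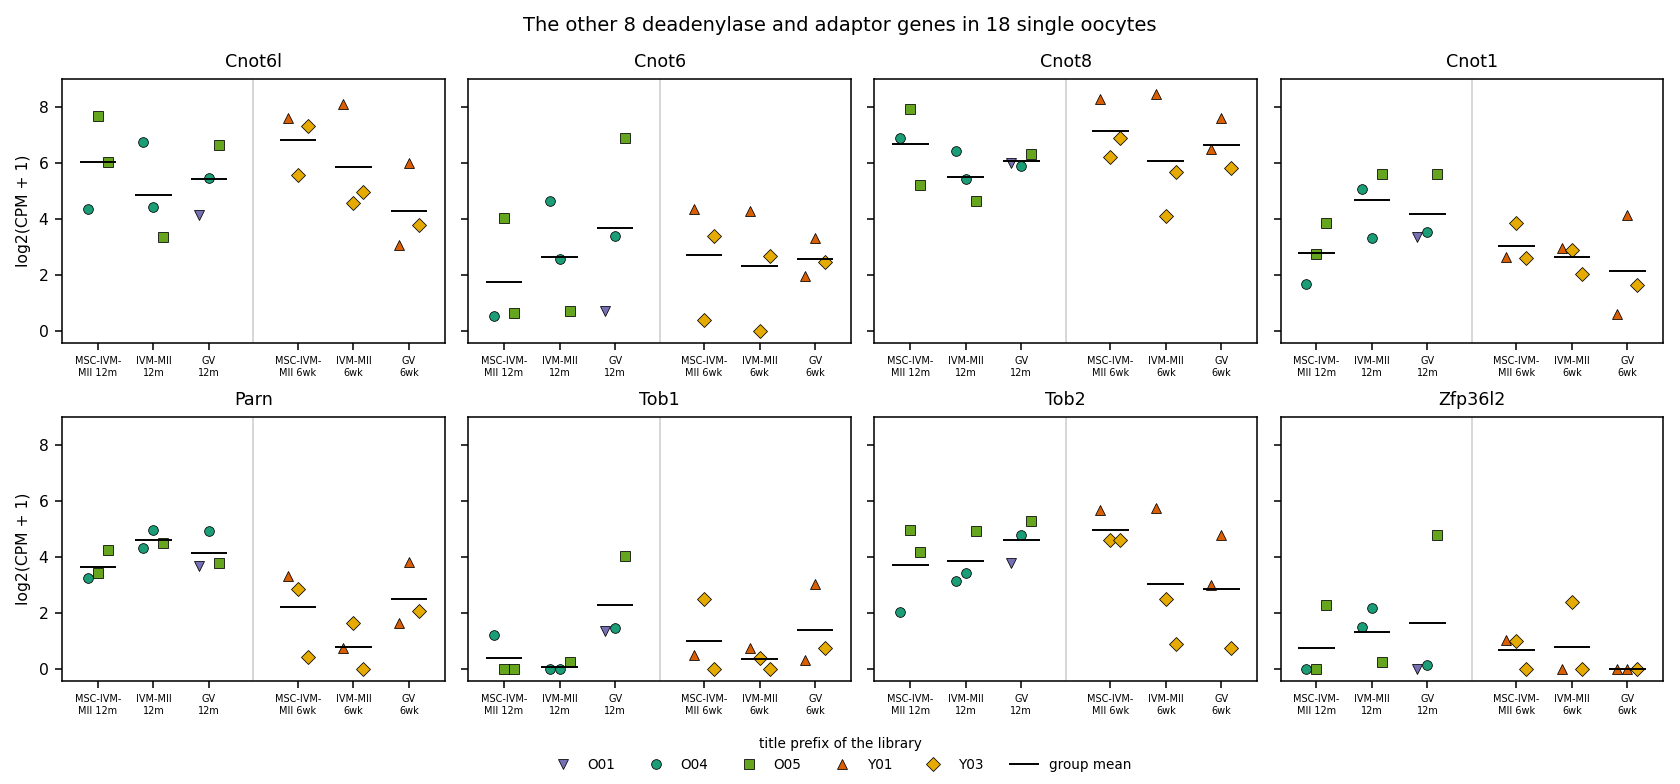
Log2(CPM + 1) of the other 8 genes, with 1 point per oocyte, shaped by title prefix, and lines at the group means. Parn lies higher in the 3 IVM-MII-12m oocytes (19.1 to 30.6 CPM) than in the 3 IVM-MII-6wk oocytes (0 to 2.17 CPM). In GV-12m a single oocyte sets the mean of Zfp36l2, and Cnot6 spreads from 0.67 to 118.6 CPM.

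Counted over the 10 genes, maturation gave differences in both directions. From GV-12m, 2 of the 10 were higher by at least 2-fold in MSC-IVM-MII-12m oocytes, where 16.7% of all genes tested were, and 3 were lower, where 41.7% were. In IVM-MII-12m oocytes 1 was higher (16.1% of all genes) and 2 were lower (39%). From GV-6wk, 4 were higher in MSC-IVM-MII-6wk oocytes (21.4%) and none was lower (35.2%), and 3 were higher in IVM-MII-6wk oocytes (16.7%) and 2 were lower (39.2%). The medians of the 10 differences were −0.69 for MSC-IVM-MII-12m, −0.45 for IVM-MII-12m, 0.80 for MSC-IVM-MII-6wk and 0.35 for IVM-MII-6wk, beside −0.60, −0.52, −0.29 and −0.52 over all genes. Without GV-12m oocyte 3 the 12-month medians turned to 0.18 and 0.43, and without IVM-MII-6wk oocyte 1 the last turned to −0.41. Btg4 was past 2-fold in all 4 comparisons and Cnot7 in 3. The Btg4 differences were above those of 95.1% to 98.3% of all genes, and the Cnot7 differences above those of 82% to 93.4%. How many of all genes had no overlap between the stages was not computed, here or for the other lists below.

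Between the ages, 6 of the 10 genes were higher by at least 2-fold in GV-12m than in GV-6wk oocytes, where 9.45% of all genes were, and none was lower, where 4.27% were. The 6 were Cnot1, Tob2, Zfp36l2, Parn, Cnot6l and Cnot6, none with separate oocytes, and the median was 1.11 beside 0.12 over all genes. Without GV-12m oocyte 3 the count past 2-fold in either direction was 3 and the median 0.42. Of all 12037 genes, 919 were then higher and 861 lower, in place of 1138 and 514. With all oocytes, 68.9% of all genes past 2-fold in this comparison were higher in GV-12m, against 43.9% in TPM. In IVM-MII oocytes 2 of the 10 were higher at 12 months (Parn and Cnot1, 18% of all genes) and 1 was lower (Cnot6l, 9.08%), and 66.5% of all genes past 2-fold were higher, against 52.5% in TPM. In MSC-IVM-MII oocytes Parn was higher (7.73% of all genes) and Tob2 was lower (15.2%).

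With co-culture, 2 of the 10 were higher by at least 2-fold at 12 months (Cnot8 and Cnot6l, 10.3% of all genes) and 1 was lower (Cnot1, 15.2%), and of all genes past 2-fold 40.4% were higher, against 50.7% in TPM. At 6 weeks 3 were higher (Tob2, Parn and Cnot8, 16.2% of all genes) and none was lower (5.22%). The oocytes overlapped for each of these. Within title prefixes at 12 months, Btg4, Cnot1 and Parn were lower in every co-cultured oocyte than in every other oocyte of the prefix, as were 10.3% of all genes, and Cnot8 was higher, as were 5.82%. At 6 weeks none of the 10 was on the same side in both prefixes, where 9.4% of all genes were higher and 4.63% lower. The medians were −0.22 at 12 months and 0.52 at 6 weeks, beside −0.09 and 0.20 over all genes. Mesenchymal stromal markers summed to at most 14.2 CPM in any oocyte and to at most 7.31 CPM in co-cultured ones.

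**Figure D5:**
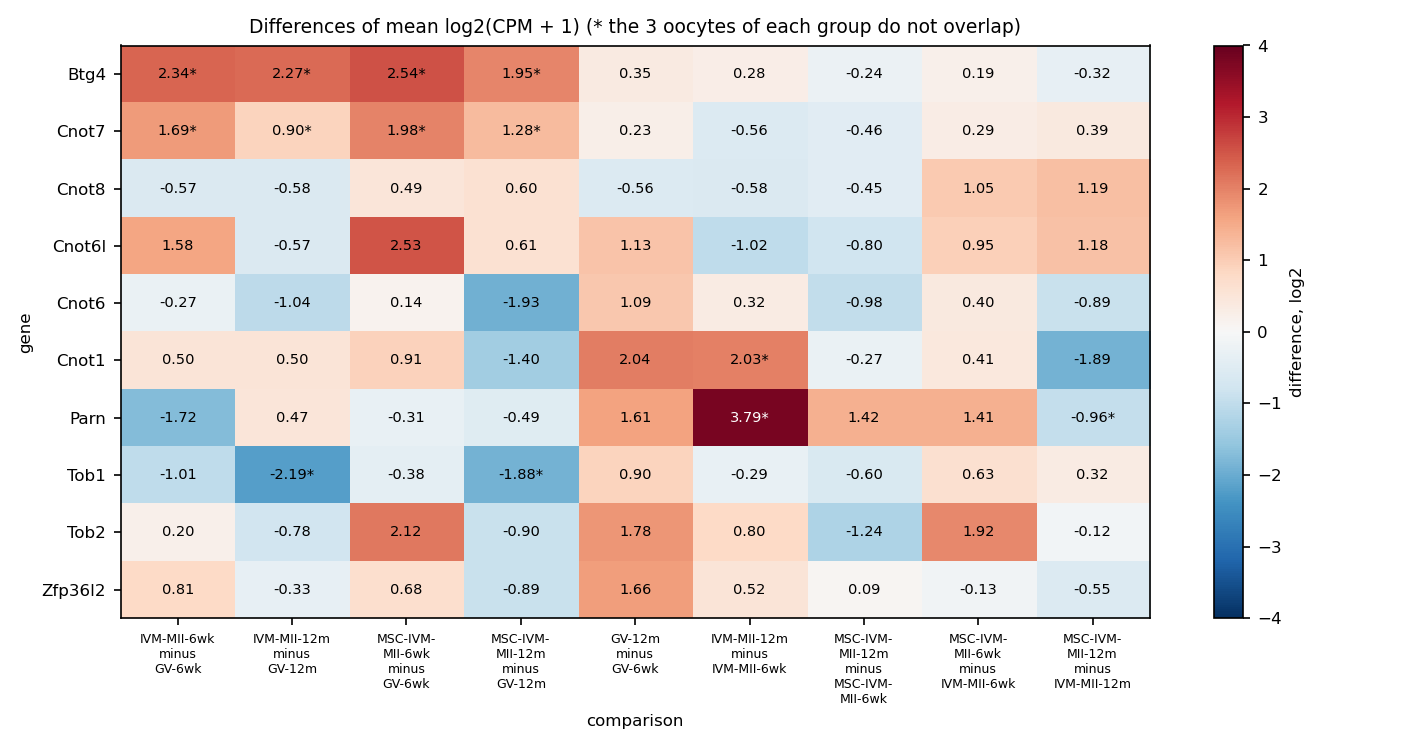
Difference of mean log2(CPM + 1) of each gene in each of the 9 comparisons, from blue (lower) to red (higher), with a star where the 3 oocytes of each group do not overlap. Btg4 (1.95 to 2.54) and Cnot7 (0.90 to 1.98) are starred in all 4 maturation comparisons. The share of all genes without overlap was not computed. The largest value is 3.79 for Parn between the ages in IVM-MII oocytes.

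Of 7 other CCR4-NOT subunits, 3 were higher and 2 lower by at least 2-fold in MSC-IVM-MII-12m than in GV-12m oocytes. In IVM-MII-12m the numbers were 2 and 1. Against GV-6wk oocytes they were 3 and 2 in MSC-IVM-MII-6wk and 2 and 2 in IVM-MII-6wk. Of all genes tested, 16.7% were higher and 41.7% lower in MSC-IVM-MII-12m, and 16.1% and 39% in IVM-MII-12m. At 6 weeks the shares were 21.4% and 35.2% in MSC-IVM-MII-6wk, and 16.7% and 39.2% in IVM-MII-6wk. Cnot4, a ubiquitin ligase that associates with the complex, averaged 249.5 CPM in MSC-IVM-MII-12m and 279.5 CPM in IVM-MII-12m oocytes, against 45.5 CPM in GV-12m oocytes. At 6 weeks Cnot4 averaged 258.2 CPM in MSC-IVM-MII-6wk and 224.2 CPM in IVM-MII-6wk oocytes, against 33.7 CPM in GV-6wk oocytes. Its differences of 2.44 to 3.42 were larger than those of Cnot7 and of Btg4 in each of the 4 comparisons, and no metaphase II oocyte overlapped GV. Cnot3, another subunit, was higher by 1.52 to 1.90 without overlap, and Cnot10 differed by −1.54 to −2.73 in the same 4 comparisons, with overlap in 2 of them. Without GV-12m oocyte 3 the counts of higher and lower subunits were 4 and 1 in MSC-IVM-MII-12m and 3 and 1 in IVM-MII-12m oocytes. Of all 12037 genes, 2278 were then higher and 4961 lower in MSC-IVM-MII-12m, and 2213 and 4592 in IVM-MII-12m.

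The next list holds 8 other genes, listed as deadenylases or their relatives, and whether each removes poly(A) tails was not examined. Of these, 3 were higher and 2 lower in MSC-IVM-MII-12m than in GV-12m oocytes, and 2 and 2 in IVM-MII-12m. Against GV-6wk oocytes the numbers were 5 and 2 in MSC-IVM-MII-6wk and 4 and 2 in IVM-MII-6wk. Of all genes, 16.1% to 21.4% were higher and 35.2% to 41.7% lower in these 4 comparisons. The 2 genes of this list that were lower were Pnldc1, a PARN relative that trims piRNA ends in the mouse, and Toe1, a nuclear deadenylase. Neither overlapped GV in any of the 4. Toe1 was low throughout, at 0.75 to 2.87 CPM in GV-12m and 2.83 to 4.02 CPM in GV-6wk oocytes. In metaphase II oocytes it was at 0.39 CPM or less. Pnldc1 was at 0, 0 and 4.54 CPM in MSC-IVM-MII-12m oocytes and at 0, 0 and 3.18 CPM in IVM-MII-12m oocytes, against 35.1, 28.6 and 6.19 CPM in GV-12m oocytes. At 6 weeks Pnldc1 was at 2.53, 0 and 0 CPM in MSC-IVM-MII-6wk oocytes and at 0 in IVM-MII-6wk oocytes, against 27.9, 27.9 and 26.2 CPM in GV-6wk oocytes. Without GV-12m oocyte 3, 4 of the 8 were higher and 2 lower in both 12-month comparisons. Of all 12037 genes, 2278 were then higher and 4961 lower in MSC-IVM-MII-12m, and 2213 and 4592 in IVM-MII-12m. Angel2, of the family of CCR4-type enzymes, was higher by 1.83 to 2.86. Its IVM-MII-6wk oocytes, at 890.9, 77.2 and 176.0 CPM, overlapped GV-6wk oocytes, at 36.7, 149.0 and 11 CPM. Angel1, a relative of Angel2, was higher by 3.09 in MSC-IVM-MII-12m and by 1.86 in IVM-MII-12m than in GV-12m oocytes. At 6 weeks Angel1 was at 58.2, 8.00 and 27.9 CPM in MSC-IVM-MII-6wk and at 31.0, 5.58 and 6.55 CPM in IVM-MII-6wk oocytes. Both overlapped GV-6wk oocytes, at 13.4, 18.9 and 3.89 CPM.

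None of the 3 other BTG genes was above GV oocytes of the same age in every metaphase II oocyte at both ages, as Btg4 was. All 3 were higher by at least 2-fold in IVM-MII-6wk than in GV-6wk oocytes, as were 16.7% of all genes. There Btg1 was at 48.5, 8.37 and 9.68 CPM against 5.90, 6.07 and 3.89 CPM. Btg2 was at 32.1, 74.1 and 27.9 CPM against 15.8, 19.9 and 13.4 CPM, without overlap. Btg3 was at 1.57, 9.61 and 0 CPM against 0, 0 and 1.77 CPM, with overlap. In MSC-IVM-MII-6wk oocytes Btg2 was at 20.9, 41.0 and 22.0 CPM, also above every GV-6wk oocyte. At 12 months Btg2 was at 27.6, 54.0 and 22.9 CPM in MSC-IVM-MII-12m and at 4.34, 26.0 and 20.1 CPM in IVM-MII-12m oocytes. In GV-12m oocytes Btg2 was at 12.0, 9.66 and 141.7 CPM. None of the 3 BTG genes was higher by at least 2-fold in the other 3 maturation comparisons, where 16.1% to 21.4% of all genes were. Btg1 was lower by at least 2-fold in both comparisons at 12 months, as were 41.7% and 39% of all genes. The 12-month values rest on GV-12m oocyte 3, where Btg1 was at 91.3 CPM, against 10.2 and 3.89 CPM in GV-12m oocytes 1 and 2. Without it the Btg1 differences were −0.14 in MSC-IVM-MII-12m and −1.23 in IVM-MII-12m in place of −1.35 and −2.44, and Btg2 in MSC-IVM-MII-12m was past 2-fold, at 1.51 in place of 0.31. Of 14 other recruiters of the complex or of BTG4, between 0 and 4 were higher and between 0 and 5 lower in a maturation comparison. Of all genes, 16.1% to 21.4% were higher and 35.2% to 41.7% lower. Without GV-12m oocyte 3, 4 recruiters were higher and 1 lower in MSC-IVM-MII-12m, in place of 2 and 4. In IVM-MII-12m 2 were higher and 4 lower, in place of 1 and 5. Of all 12037 genes, 2278 were then higher and 4961 lower in MSC-IVM-MII-12m, and 2213 and 4592 in IVM-MII-12m. The recruiter Zfp36l1, a relative of Zfp36l2, differed by −1.48 and −2.46 in these comparisons, and by −0.30 and −1.28 without that oocyte. Pabpn1l, a poly(A)-binding partner of BTG4 in the mouse, differed by −1.95 and −1.80 in MSC-IVM-MII-12m and IVM-MII-12m oocytes and by −1.30 and −0.49 in MSC-IVM-MII-6wk and IVM-MII-6wk oocytes. Nanos3 had no count in any of the 18 oocytes.

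Across the 18 oocytes, Btg4 and Cnot7 gave a Pearson r of 0.86 and a Spearman rho of 0.78 (n = 18), and the r of Btg4 with the other nucleases was between −0.29 and 0.29. Cnot6l went with Cnot8 (r = 0.68) and with Cnot6 (r = 0.65). These are descriptions over oocytes that share groups, stages and prefixes. How many of the 10 genes had their highest value of a group in the same oocyte varied between the groups. GV-6wk oocyte 2 held the highest value of all 9 genes with a count in that group, whereas 44.1% of all genes with a count peaked there. That library detected 15181 genes, against 13788 and 13046 in GV-6wk oocytes 1 and 3. GV-12m oocyte 3 held the highest of 7 of the 10, against 36.8% of all genes, IVM-MII-6wk oocyte 1 held 7, against 46% of all genes, and MSC-IVM-MII-6wk oocyte 1 held 6, against 47.3%. In MSC-IVM-MII-12m and IVM-MII-12m no oocyte held more than 5 of the 10, and no oocyte there held more than 38.7% of all genes.

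The 5 genes whose levels were most like Btg4 over the 18 oocytes, among 4387 genes with a mean of at least 20 CPM, were Bcl2l10, Rchy1, Ccndbp1, Tcl1b2 and Ankrd12, with r from 0.956 to 0.973. Bcl2l10, an oocyte member of the BCL2 family, averaged 9145 CPM in MSC-IVM-MII-12m and 14019 CPM in IVM-MII-12m oocytes, against 2925 CPM in GV-12m oocytes, and 15053 CPM in MSC-IVM-MII-6wk and 14533 CPM in IVM-MII-6wk oocytes, against 2522 CPM in GV-6wk oocytes. For Cnot6l they were Cdc25a, Ppfia1, Dstyk, Rbm26 and Socs7, with r from 0.911 to 0.932. For Parn they were Snhg14, Qsox1, Tm2d2, Atp6v0e2 and Ensa, with lower r of 0.662 to 0.728.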

How the data were processed

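SMART-seq2, which primes on poly(A) tails, was run on single mouse oocytes. Per the labels' protocols, the nucleus of each lysed oocyte was pelleted and RNA in the supernatant was made into a library with a Vazyme TruePrep kit. Per the file headers, the authors deposited expected counts, TPM, FPKM and an effective gene length for each gene and oocyte. Per the submitters' processing notes, the tools were TopHat2 2.1.1, Trim Galore 0.4.5, FastQC 0.11.8 and Cufflinks, with mm10 and GRCm38.p5 as builds. What made the counts, with which annotation and strand setting, is not given in the sources used here. As deposited, expected counts split reads among genes with shared sequence. TPM as deposited depends on the gene length assigned per oocyte, which for Cnot7 ran from 1324 to 2337 bases. For Cnot6 it ran from 830 to 4588 bases, and for Cnot6l from 2562 to 5035 bases. FPKM as deposited by the authors was not used.

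Expected counts were rounded, filtered with filterByExpr by group (12037 of 47069 genes kept) and scaled by TMM in edgeR 4.0.16 under R 4.3.3. Log2 values were computed from the deposited counts with a pseudocount of 1 CPM, which shrinks the differences of genes with few counts. The 3 oocytes of a group count as 1 sample, and no test was made. Counting intervals are exact at 95%. They and the floor of 3 counts per library cover counting error only, because PCR copies of a molecule cannot be recognised. No pair of libraries agreed within sampling noise (lowest chi-square per degree of freedom 28.0 over 153 pairs). The computation was tested on simulated counts. Gene symbols came from GENCODE M21, and promoter windows from RefSeq. Other gene lists had 7, 8, 3 and 15 symbols, and 14 of the last were matched. Up to 3 genes of each list with the largest difference in a comparison were named, and for Btg4, Cnot6l and Parn the 5 genes with the highest Pearson r. Inha, Gja1 and the markers at 0 beside them were named after their values were seen, as were Zp3, Dazl and Nanos3. The 10 genes, the lists and the alternatives were chosen with earlier results of these data known. Alternatives were DESeq2 1.42.0 size factors, plain totals, TPM, other pseudocounts, no filter, no mitochondrial genes, ratios of group means, left-out oocytes and within-prefix differences. Differences relative to the median of all genes, thinning to the smallest total, the other gene lists without GV-12m oocyte 3 and the order of oocytes within prefixes were added after the data had been seen. Other steps used pandas 2.3.3, NumPy 2.4.6, Matplotlib 3.10.9 and SciPy 1.17.1 (Python 3.11.15).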

Additional observations from a re-analysis of the deposited data

How the results depend on the processing

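The Btg4 and Cnot7 differences between metaphase II and GV oocytes kept their direction under every alternative run, with Btg4 between 1.66 and 2.93 and Cnot7 between 0.57 and 2.27. The counts of the 10 genes past 2-fold depended on the pseudocount, as did those of all 12037 genes. For IVM-MII-6wk minus GV-6wk, 1339 of all genes were higher and 3026 lower at 5 CPM, in place of 2010 and 4721. At 0.1 CPM the all-gene numbers were 2318 and 5960. At a pseudocount of 5 CPM the count was 3 of 10 in place of 5 for IVM-MII-6wk minus GV-6wk. For IVM-MII-12m minus GV-12m it was 1 in place of 3, with 1322 of all genes higher and 2897 lower, in place of 1937 and 4689. For MSC-IVM-MII-12m minus MSC-IVM-MII-6wk it was 0 in place of 2, with 262 and 525 of all genes, in place of 930 and 1829. For MSC-IVM-MII-6wk minus IVM-MII-6wk it was 1 in place of 3, with 466 and 116 of all genes, in place of 1954 and 628. At 0.1 CPM the count of the 10 genes was 7 in place of 4 for MSC-IVM-MII-6wk minus GV-6wk. There 3005 of all genes were higher and 5149 lower, in place of 2571 and 4236. For IVM-MII-12m minus IVM-MII-6wk it was 7 in place of 3, with 3459 and 1929 of all genes, in place of 2167 and 1093. For MSC-IVM-MII-12m minus MSC-IVM-MII-6wk it was 4, with 1674 and 3291 of all genes. For MSC-IVM-MII-12m minus IVM-MII-12m it was 6 in place of 3, with 2083 and 3121 of all genes, in place of 1236 and 1826. In TPM, with ratios of group means and without the Y01 oocytes, the count for MSC-IVM-MII-12m minus MSC-IVM-MII-6wk was 1 in each. Of all genes, 708 were higher and 1533 lower there in TPM, in place of 930 and 1829. Within title prefixes the count of the 10 genes was 5 for IVM-MII-12m minus GV-12m. This count, and those with ratios of group means and without the Y01 oocytes, stand without matching counts over all genes.

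Medians of the 10 genes near 0 turned sign. For IVM-MII-12m minus IVM-MII-6wk the median was −0.04 in TPM and −0.03 with ratios of group means. For MSC-IVM-MII-12m minus IVM-MII-12m it was 0.02 in TPM, and for IVM-MII-12m minus GV-12m it was 0.06 relative to the median of all genes. The Cnot6l difference for IVM-MII-12m minus IVM-MII-6wk was 0.08 without the Y01 oocytes.

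Leaving out each oocyte in turn gave these ranges of the median and of the count past 2-fold, without the matching counts over all genes. They were −1.02 to 0.18 and 4 to 8 for MSC-IVM-MII-12m minus GV-12m, −0.89 to 0.43 and 3 to 6 for IVM-MII-12m minus GV-12m, 0.55 to 1.44 and 4 to 6 for MSC-IVM-MII-6wk minus GV-6wk. They were −0.41 to 1.00 and 4 to 8 for IVM-MII-6wk minus GV-6wk, 0.42 to 1.80 and 3 to 7 for GV-12m minus GV-6wk, −0.08 to 0.42 and 3 to 5 for IVM-MII-12m minus IVM-MII-6wk. They were −0.52 to −0.18 and 1 to 5 for MSC-IVM-MII-12m minus MSC-IVM-MII-6wk, −0.35 to 0.11 and 2 to 5 for MSC-IVM-MII-12m minus IVM-MII-12m, 0.42 to 1.09 and 1 to 5 for MSC-IVM-MII-6wk minus IVM-MII-6wk. The Cnot6l difference for IVM-MII-12m minus IVM-MII-6wk ran from −1.97 to 0.08, the Cnot6 difference for IVM-MII-12m minus GV-12m ran from −2.52 to 0.57 and that for GV-12m minus GV-6wk from −0.52 to 2.56, where the ends of 0.57 and −0.52 leave out GV-12m oocyte 3 and the 0.08 leaves out IVM-MII-6wk oocyte 1.
Of 69 values that moved or turned, 30 belong to single genes, ratios or places. The cause of these moves was not tested. No paired analysis was possible because the replicate numbers follow the order of the accessions and tie no oocytes across groups, so differences within title prefixes were computed instead. A count of 10 or fewer per group, as for Parn in IVM-MII-6wk and Tob1 in metaphase II oocytes of 12 months, limits what depth can show.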
